A study of Mus musculus with 12 samples.

Results

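Odorant receptor (OR) genes numbered Olfr329 to Olfr372 in the mouse were followed in the main olfactory epithelium (MOE) after 1 nostril had been closed. Members were the genes with a number in that range whose probe set on the array names that single gene, with the brightest probe set taken for each gene. This gave 29 members of 1015 OR genes read in the same way, and of 19938 genes in all. The range holds 44 numbers, of which 12 have a RefSeq symbol with -ps, for pseudogene. Other marks of a pseudogene were not looked at, so that a member may still be 1. Of the 32 others, Olfr329, Olfr331 and Olfr340 had no probe set of their own.

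The samples were MOE tissue from either side of the nose of WT and H2be-KO mice after unilateral naris occlusion (UNO). In the KO the coding sequence of H2be, a histone H2B variant of olfactory neurons, is replaced by a Gap43-mCherry reporter. The right nostril was cauterised at 14 days of age and stayed closed for 3 weeks, and the open and the closed side were collected separately. The 4 groups were thus WT open, WT closed, H2be-KO open and H2be-KO closed, each with 3 samples of tissue pooled from several mice. All mice had 1 closed nostril, so that the open side comes from operated animals and is not an untreated MOE. The titles of the samples give an age of 5 weeks and their age tag 6 months. The legends of the study give 5 weeks for these arrays, the age that the times of closure also give. The design text gives 2 mice per sample, 1 of each sex, where the legends of the study give more.

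Each mature olfactory sensory neuron (OSN) expresses 1 OR gene from a single allele out of a very large family. The OR protein is a G protein-coupled receptor that sets both the odors a neuron detects and the glomerulus its axon reaches. OR genes stand in clusters along many chromosomes, and neighbours in a cluster are often close relatives that arose by duplication. In the MOR nomenclature, used below, genes with the same family number are related in sequence. In RNA from whole tissue, fewer neurons that express an OR and less OR mRNA in each neuron cannot be told apart. For ORs outside this range, the study reports from in situ hybridization that changes after UNO reflected how frequently an OR was expressed. Which odors activate the members is not given in the sources used here.

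The members occupy 3 chromosomes. On chromosome 2 they form 1 run of 24 genes from Olfr338 to Olfr368. It holds 11 genes of family MOR136, 3 of MOR127, 4 of MOR138, 3 of MOR159, and 1 each of MOR134, MOR158 and MOR178. On chromosome 8, Olfr372 (MOR282), Olfr370 (MOR267) and Olfr371 (MOR141) lie far apart, each in a run of its own. On chromosome 11, Olfr332 (MOR284) and Olfr330 (MOR275) are neighbours.

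Relatives in the run can be nearly identical where the protein begins. This bears on what a probe set can separate only if its probes lie there, which is not given in the sources used here. RefSeq windows on GRCm38.p6 were found for all 29 members, and in 25 of them the gene start is the first base of the start codon. The exceptions were Olfr330, Olfr332, Olfr370 and Olfr372. The first 50 coding bases were compared position by position, without gaps, in the 300 pairs of those 25 genes. The median was 27 differences over the 67 pairs within a family and 32 over the 233 pairs between families. Of the 300 pairs, 2 were identical. The first is Olfr358 and Olfr360, shown with Olfr361 because the 3 genes of MOR159 did not move together. Capitals mark bases that differ from Olfr360, which lies at chr2:37068307-37068356 (+), with Olfr358 at chr2:37005563-37005612 (-) and Olfr361 at chr2:37085697-37085746 (-).
Olfr360: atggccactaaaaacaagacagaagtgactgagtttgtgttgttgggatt
Olfr358: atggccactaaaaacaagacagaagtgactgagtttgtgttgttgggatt
Olfr361: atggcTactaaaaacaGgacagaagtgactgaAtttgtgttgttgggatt

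The second identical pair was Olfr341 and Olfr345 of MOR136. They are shown with Olfr342 and Olfr346 because Olfr341 was among the members with the largest change while Olfr345 gave almost no signal. Capitals mark differences from Olfr341. The stretches lie at chr2:36480079-36480128 (-) for Olfr341, chr2:36640041-36640090 (+) for Olfr345, chr2:36527414-36527463 (+) for Olfr342 and chr2:36688004-36688053 (+) for Olfr346.
Olfr341: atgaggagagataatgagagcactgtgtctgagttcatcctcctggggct
Olfr345: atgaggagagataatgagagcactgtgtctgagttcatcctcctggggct
Olfr342: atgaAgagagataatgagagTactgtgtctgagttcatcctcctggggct
Olfr346: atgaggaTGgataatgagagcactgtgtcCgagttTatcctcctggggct

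Olfr338, the member of this family with the largest average change, starts a few codons further in (chr2:36376778-36376827, +). Capitals mark the longest run it shares with Olfr341, of 32 bases.
Olfr338: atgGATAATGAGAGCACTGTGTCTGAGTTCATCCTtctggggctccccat

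The 250 bases before the gene start were searched for a homeodomain motif, TAATTA, and for the core of an Olf/Ebf site, CCCNNGGG, which are the kinds of site known from OR promoters. Both motifs read the same on either strand and share no bases. For most members these bases precede the start codon and need not be the promoter. TAATTA was found in 5 of 29 members, Olfr348, Olfr352 and the 3 genes of MOR159, against 18.1% of OR windows and 4.84% of all windows. In MOR159 its first base lay 95 bases before the start in Olfr358 (chr2:37005692-37005717, -), 247 in Olfr360 (chr2:37068057-37068075, +) and 142 in Olfr361 (chr2:37085873-37085898, -). The position thus differed among 3 genes whose coding starts differ by at most 3 bases. Capitals mark the motif.
Olfr358: aagaacaccaTAATTAaaagaacaaa
Olfr360: atcTAATTAaaaaaagaaa
Olfr361: tgatgattttTAATTAaaaagcacag

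CCCNNGGG was found in 1 member, Olfr330 on chromosome 11, 129 bases before its start (chr11:58534937-58534964, -). It is in 2.75% of OR windows and 11.8% of all windows.
Olfr330: tctttaaaatCCCagGGGggagttatca

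Expression is given as log2 values per probe set, as the authors normalized and summarised them. A probe set was tested where its mean over the 12 arrays was above 5, which kept 32615 of 35556 probe sets, 984 of 1015 OR genes and 28 of 29 members. Olfr345 was the member below that level, with values of 4.10, 3.30 and 3.35 in WT open, 2.46, 3.27 and 3.26 in WT closed, 2.83, 3.23 and 3.23 in KO open and 3.59, 3.19 and 2.85 in KO closed samples. It was not tested. Mean levels of the tested members ran from 5.47 in Olfr356 and 5.65 in Olfr341 to 8.34 in Olfr370, 8.92 in Olfr332 and 9.67 in Olfr330. Levels of different probe sets depend on their probes and do not rank the genes by expression. Groups were compared with limma, with 3 arrays against 3 from a fit of all 12. A difference was called where the p adjusted over all probe sets (Benjamini-Hochberg) was under 0.05, and the call with the p adjusted over OR genes, as in the methods of the study, stands beside it. Nothing in the labels says whether the samples of a group came from separate litters or days, and p-values measure the spread between these samples.

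In the WT, 1 of 28 members was called between the sides. Olfr370, on chromosome 8, was higher on the closed side by 0.75 ± 0.13 (SE, n = 3 per side) on the log2 scale, a 1.68-fold rise. None was called lower. Adjusted over OR genes, Olfr332 on chromosome 11 and Olfr341 in the MOR136 group were called higher as well, and Olfr360 of MOR159 was called lower. That makes 3 higher and 1 lower of 28. The background was 0.855% of all probe sets, 3.76% of OR genes higher and 1.12% lower by the first rule, and 9.15% higher and 3.86% lower by the second. The members called made up 3.57% higher and 0% lower by the first rule and 10.7% higher and 3.57% lower by the second, each within 1 gene of what the OR shares would give for 28 genes. The median log2 change of the members was 0.020 in the WT, against 0.013 over all OR genes. A change above 0 was found in 15 of 28 members (53.6%), 51.9% of OR genes and 46.8% of all probe sets. Unadjusted p was under 0.05, in either direction, for 8 members, 252 of 984 OR genes and 3045 of 32615 probe sets (limma).

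In the H2be-KO, Olfr370 was again the 1 member called. It was higher on the closed side by 0.65 ± 0.13 (SE, n = 3 per side), or 1.57-fold, and none was called lower. Adjusted over OR genes, Olfr338 of MOR136 was called higher beside it, and no member was called lower. The background was 1.05% of all probe sets, 3.86% of OR genes higher and 1.42% lower, and 8.03% higher and 3.96% lower with the adjustment over OR genes, against 3.57% and 7.14% of the members called higher by the respective rules. The median log2 change of the members was 0.17, against 0.042 over all OR genes. A change above 0 was found in 20 of 28 members (71.4%), 56.4% of OR genes and 54.9% of all probe sets. An unadjusted p under 0.05 was reached by 9 members, 262 of 984 OR genes and 3433 of 32615 probe sets (limma). Sides without overlap of their arrays were not confined to called members. In the KO they were also found in Olfr342, Olfr344, Olfr348 and Olfr365, and the share over all OR genes was not computed.

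On the average of both genotypes, with 6 arrays against 6, 5 of 28 members were called. Olfr370, Olfr338, Olfr368 and Olfr332 were higher on the closed side and Olfr360 was lower. Adjusted over OR genes, Olfr341, Olfr357 and Olfr330 were called higher in addition, so that 7 were higher and 1 was lower. The background was 2.90% of all probe sets, 10.1% of OR genes higher and 4.88% lower, and 16.8% higher and 9.45% lower by the second rule. Of the members, 14.3% were called higher and 3.57% lower by the first rule, and 25.0% and 3.57% by the second. The difference from the other OR genes was not tested. The median log2 change was 0.076 in the members and 0.022 over all OR genes. A change above 0 was found in 19 of 28 members (67.9%), 53.9% of OR genes and 50.9% of all probe sets. These comparisons include all 12 arrays and are not independent of the comparisons within each genotype.

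**Figure D1:**
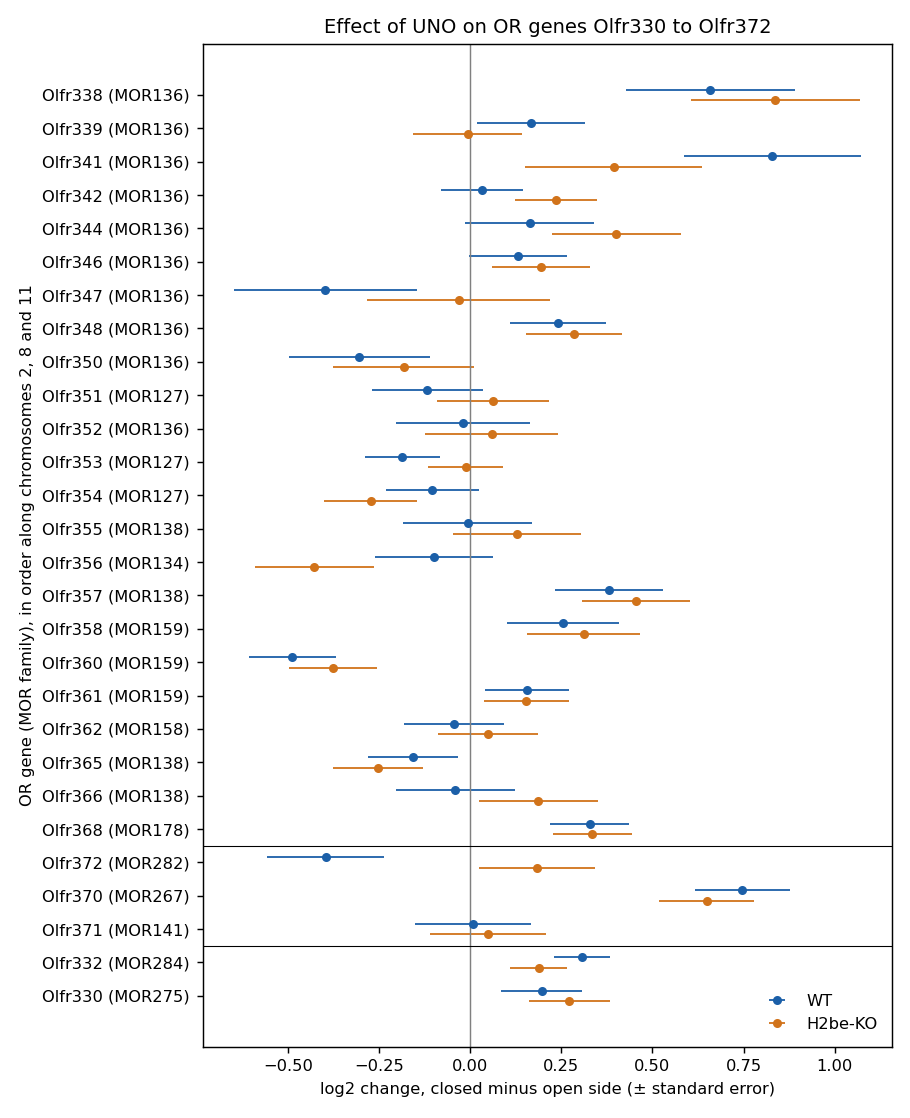
Change of each tested member after UNO, as the closed minus the open side on the log2 scale with its standard error, in WT (blue) and H2be-KO mice (orange), 3 arrays per group. Genes stand in chromosome order, with lines between chromosomes 2, 8 and 11. Olfr370 and Olfr338 lie to the right in both genotypes and Olfr360 to the left, while most genes between them lie within 0.4 of 0.

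Olfr370 had the clearest separation of the sides. In the WT its log2 levels were 7.92, 7.82 and 8.18 on the open side against 8.56, 8.66 and 8.95 on the closed side. In the KO the open side had 8.07, 8.07 and 7.86 and the closed side 8.59, 8.79 and 8.57. All 6 closed-side arrays lay above all 6 open-side arrays. The adjusted p was 0.0225 in the WT, 0.0392 in the KO and 0.00145 on the average change of 0.70 ± 0.09 (limma). Leaving out any 1 of the 12 arrays kept the average call and both calls adjusted over OR genes. The WT call over all probe sets was lost without WT open replicate 1 or 2 or WT closed replicate 2 or 3 (adjusted p from 0.0309 to 0.107 over the 12 fits, limma). The KO call was lost without any of the 6 KO arrays, WT open replicate 1 or WT closed replicate 2 (adjusted p from 0.0309 to 0.169, limma). Its companions on chromosome 8 did not follow it. Olfr371 differed by 0.01 ± 0.16 in the WT and 0.05 ± 0.16 in the KO, and Olfr372 by -0.40 ± 0.16 and 0.18 ± 0.16, none of them called.

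Olfr338 stands at the near end of the chromosome 2 run. Its levels were 5.67, 5.52 and 6.12 on the WT open side against 6.11, 6.54 and 6.64 on the closed side, and 5.39, 6.31 and 6.16 against 6.86, 6.74 and 6.77 in the KO. The sides overlapped narrowly in the WT and were separate in the KO, where KO open replicate 1 was the lowest of all. The change was 0.66 ± 0.23 in the WT (adjusted p = 0.343, limma), 0.84 ± 0.23 in the KO (adjusted p = 0.165, or 0.0373 over OR genes) and 0.75 ± 0.16 on average (adjusted p = 0.0323, limma). The average call was lost without any KO closed array, WT open replicate 1 or 2, or WT closed replicate 2 or 3 (adjusted p up to 0.0846, limma). The KO call adjusted over OR genes was lost without KO open replicate 1 or 3, any KO closed array or WT closed replicate 2 (adjusted p from 0.0269 to 0.116, limma).

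Olfr341, in the same family, lay near the lower limit of the test. In WT open samples its levels were 4.61, 5.79 and 4.79, against 5.99, 5.78 and 5.91 in WT closed samples. KO open samples were at 5.45, 5.88 and 5.54 and KO closed samples at 5.95, 6.02 and 6.08. WT open replicate 2 reached the closed-side values, and the other 2 WT open arrays were below 5. The WT change of 0.83 ± 0.24 was called over OR genes (adjusted p = 0.0446) and not over all probe sets (adjusted p = 0.213, limma), and it ranged from 0.60 to 1.19 as single arrays were left out. The OR call remained in 2 of those 12 fits, those without KO open replicate 2 or WT open replicate 2. On average the change was 0.61 ± 0.17 (adjusted p = 0.0999, or 0.022 over OR genes, limma), and the latter call was lost without KO open replicate 1 or WT open replicate 3.

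The other 8 tested genes of MOR136 were not called. Their average log2 changes were 0.28 in Olfr344, 0.26 in Olfr348, 0.16 in Olfr346, 0.13 in Olfr342, 0.08 in Olfr339, 0.02 in Olfr352, -0.21 in Olfr347 and -0.24 in Olfr350. With Olfr338 and Olfr341, 8 of the 10 had an average change above 0, against 53.9% of OR genes, and the family median was 0.15. Olfr347 had 1 of the largest differences in the WT without a call. Its open-side levels were 7.11, 7.08 and 7.05, closed-side arrays were at 6.66 and 6.39 with the third just below the open side, and the change was -0.40 ± 0.25 (adjusted p = 0.727, limma). In the KO the closed side had 6.03, 6.99 and 7.08, the widest spread of any group in the family beside the WT open side of Olfr341.

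Olfr360 was the member called lower. Its levels were 8.14, 8.13 and 8.02 on the WT open side against 7.62, 7.75 and 7.45 on the closed side, and 8.12, 7.85 and 7.68 against 7.52, 7.43 and 7.58 in the KO. The sides were separate in both genotypes. The log2 change was -0.49 ± 0.12 in the WT (adjusted p = 0.111, or 0.0201 over OR genes, limma), -0.38 ± 0.12 in the KO (adjusted p = 0.242, or 0.063 over OR genes, limma) and -0.43 ± 0.08 on average (adjusted p = 0.0173, limma). The average call was lost without WT open replicate 1 or KO closed replicate 2 (adjusted p up to 0.0537, limma). The WT call over OR genes was lost without WT open replicate 1 or 2 or WT closed replicate 3 (adjusted p up to 0.0744, limma).

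The relatives of Olfr360 differed from it in direction. Olfr358, with the same first 50 coding bases, had levels of 6.89, 6.97 and 7.16 on the WT open side, 7.06, 7.44 and 7.28 on the closed side, 6.68, 7.20 and 6.66 on the KO open side and 7.08, 7.30 and 7.10 on the KO closed side. Its average change was 0.28 ± 0.11 (adjusted p = 0.27, limma) and that of Olfr361 was 0.16 ± 0.08 (adjusted p = 0.473, limma), neither called. A probe set that names Olfr360 and Olfr358 together, and so is no member, changed by -0.30 ± 0.08 on average (adjusted p = 0.0747, limma). WT open samples were at 8.45, 8.53 and 8.28 and WT closed samples at 8.08, 8.11 and 8.10, the same direction as in the probe set of Olfr360 alone. Where the probes lie in these genes is not given in the sources used here.

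Further along the run, Olfr368 (MOR178) and Olfr357 (MOR138) were higher on the closed side. Olfr368 was at 8.03, 8.01 and 8.02 on the WT open side, 8.25, 8.38 and 8.42 on the closed side, 7.82, 8.22 and 8.11 on the KO open side and 8.42, 8.27 and 8.46 on the KO closed side, with the sides separate in both genotypes. Its average change was 0.33 ± 0.08 (adjusted p = 0.0425, limma), with 0.33 in the WT and 0.33 in the KO. This call remained in 1 of the 12 fits that leave out an array, the one without KO open replicate 2 (adjusted p from 0.0319 to 0.107, limma). It kept the call over OR genes in all 12.

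Olfr357 was at 7.28, 6.83 and 6.64 on the WT open side and 7.46, 7.14 and 7.29 on the WT closed side, which overlapped, and at 6.46, 6.54 and 6.67 against 6.93, 7.05 and 7.06 in the KO, which did not. The average change was 0.42 ± 0.11 (adjusted p = 0.0621, or 0.0127 over OR genes, limma), and the latter call held in all 12 fits without an array. The other genes of MOR138 were not called, with average changes of 0.06 in Olfr355, 0.07 in Olfr366 and -0.21 in Olfr365. Olfr365 has a second probe set, at lower signal, which changed by -0.04 ± 0.11.

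The 3 genes of MOR127 had average changes below 0 and none was called. They were -0.03 in Olfr351, -0.10 in Olfr353 and -0.19 in Olfr354. Olfr354 changed by -0.27 ± 0.13 in the KO (adjusted p = 0.488, limma). Olfr356, the single gene of MOR134 and the faintest of the tested members, was at 5.43, 5.63 and 5.81 on the KO open side and 5.35, 5.28 and 4.94 on the KO closed side. This was the largest fall in value of any member in the KO, -0.43 ± 0.16, and it was not called (adjusted p = 0.357, limma). Its average change was -0.26 ± 0.12 (adjusted p = 0.347, limma). Olfr362 of MOR158 was level between the sides within its error, with an average change of 0.0016 and a 95% interval from -0.21 to 0.21.

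On chromosome 11 both members were slightly higher on the closed side. Olfr332 was at 8.73, 8.75 and 8.87 on the WT open side, 9.10, 9.03 and 9.14 on the closed side, 8.83, 8.78 and 8.82 on the KO open side and 8.99, 9.04 and 8.97 on the KO closed side. All closed-side arrays exceeded all open-side arrays. Its residual SD of 0.053 was the lowest of the members, against a median of 0.194 over them, and the average change of 0.25 ± 0.06 was called (adjusted p = 0.0347, limma). That call remained in 1 of the 12 fits that leave out an array, the one without WT open replicate 3 (adjusted p up to 0.0971, limma), and its call over OR genes in all 12. In the WT its change of 0.31 ± 0.08 was called over OR genes (adjusted p = 0.0248, limma), a call lost without WT open replicate 1 or 2 or WT closed replicate 1 or 3.

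Olfr330, beside it, was at 9.59, 9.69 and 9.42 on the WT open side and 9.56, 9.86 and 9.87 on the WT closed side, where WT closed replicate 1 fell among the open-side values. In the KO it was at 9.54, 9.62 and 9.47 against 9.72, 9.92 and 9.80. Its average change of 0.23 ± 0.08 was called over OR genes (adjusted p = 0.0463) and not over all probe sets (adjusted p = 0.181, limma). That call remained in 3 of the 12 fits without an array, those without KO closed replicate 1, WT open replicate 2 or WT closed replicate 1 (adjusted p from 0.0166 to 0.104, limma). Probe sets that name Olfr329, Olfr330, Olfr331 and 3 further ORs at once, and so are no members, changed by 0.26 ± 0.06 (adjusted p = 0.0509, limma) and 0.28 ± 0.07 (adjusted p = 0.0803, limma) on average. They are the nearest reading available here of Olfr329 and Olfr331, but cannot separate these from the other ORs they name, such as Olfr330.

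**Figure D2:**
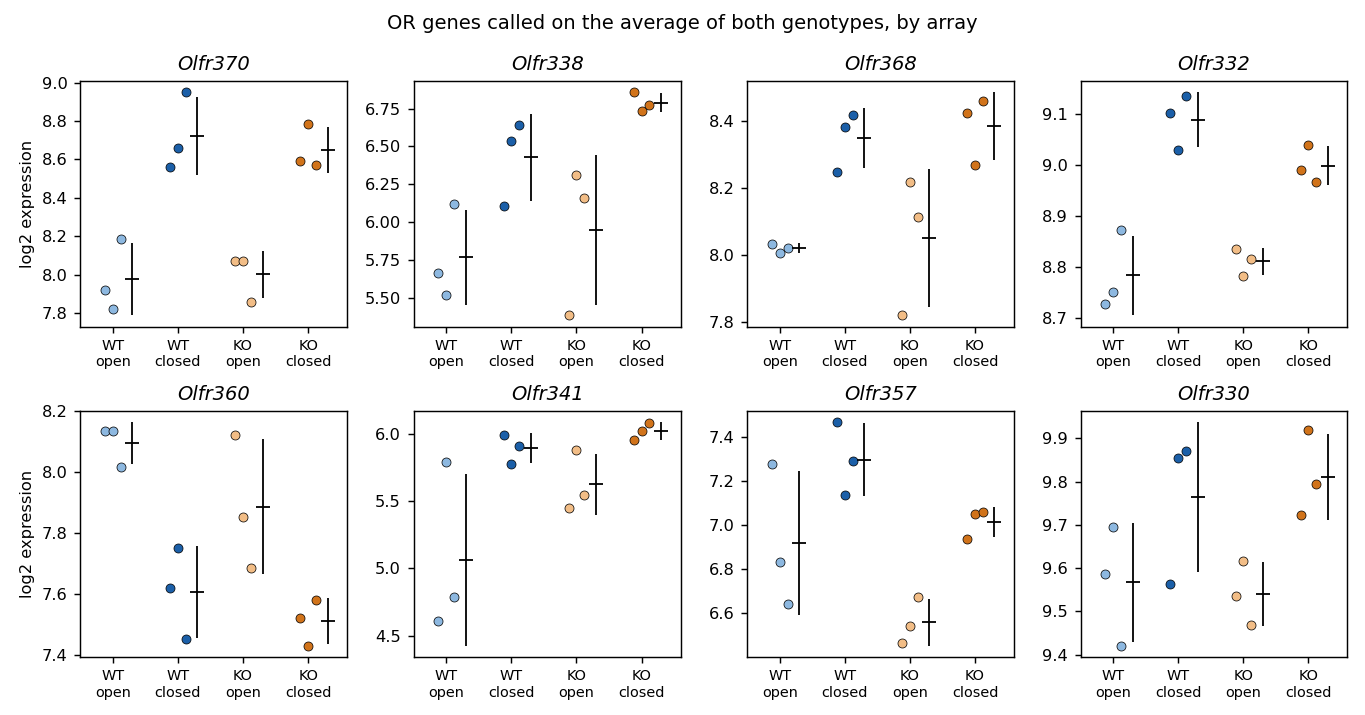
Log2 expression on each array of the 8 members called on the average of both genotypes by either adjustment, with 3 points per group and the mean with its SD in black. The closed side lies above the open side in Olfr370, Olfr332 and Olfr368 without overlap across all arrays and below it in Olfr360 within each genotype, while WT arrays of the sides overlap in Olfr338, Olfr341, Olfr357 and Olfr330. Each panel has its own axis.

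The changes in the 2 genotypes were alike in order over the members. Across the 28 genes the WT and KO changes had Pearson's r = 0.79 and Spearman's rho = 0.84, against 0.77 and 0.74 over all 984 OR genes. The 2 sets of changes come from separate arrays, while genes share those arrays and related sequences and are not independent replicates. Both changes were above 0 in 14 members and below 0 in 7, and they had opposite signs in the other 7. Over the 984 OR genes these counts were 418, 336 and 230. The size of the change was smaller in the KO in 11 of 28 members and in 499 of 984 OR genes.

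**Figure D3:**
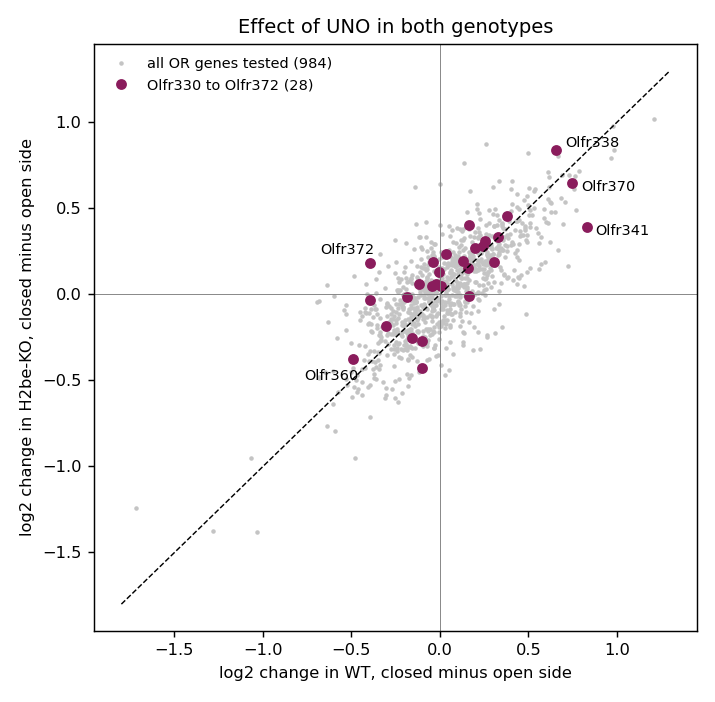
Log2 change after UNO, closed minus open side, in the WT (x axis) and the H2be-KO (y axis) for the 28 tested members (purple) and all 984 OR genes tested (grey, members included), with the line of equal change dashed. Olfr370, Olfr338 and Olfr341 lie at the upper right, Olfr360 at the lower left and Olfr372 away from the line at the upper left.

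Between the genotypes no member was called, on the open or the closed side, by either adjustment. The background of calls was 0.0215% of all probe sets on the open side and 0.0245% on the closed side, with 0% of OR genes in both. On the open side 3 of 28 members had an unadjusted p under 0.05, and on the closed side 1 (limma). Over OR genes this was 68 of 984 on the open side and 66 on the closed side. Over all 32615 probe sets it was 2175 and 1391. On the open side the 2 largest differences of each sign, as the KO minus the WT, were 0.56 ± 0.24 in Olfr341 (adjusted p = 0.719, limma), 0.18 ± 0.23 in Olfr338, -0.39 ± 0.18 in Olfr344 and -0.36 ± 0.15 in Olfr357. For Olfr341, 2 of the 3 WT open arrays were below 5, as given above. Olfr344 was at 6.06, 5.88 and 6.38 in the WT and 5.70, 5.60 and 5.83 in the KO, with the groups separate (adjusted p = 0.739, limma).

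On the closed side the 2 largest differences of each sign were 0.42 ± 0.16 in Olfr372 (adjusted p = 0.999, limma), 0.36 ± 0.23 in Olfr338, -0.28 ± 0.16 in Olfr356 and -0.28 ± 0.15 in Olfr357. Olfr357 was thus lower in the KO by value on both sides, without a call on either. The 95% interval of a difference between 3 arrays and 3 reached 0.326 to either side at the median of the members, which limits what these arrays can detect.

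No member passed the test of whether UNO acted differently in the KO and the WT, by either adjustment. The background of calls was 0% of all probe sets and 0% of OR genes. An unadjusted p under 0.05 was reached by 1 of the 28, against 33 of 984 OR genes and 1309 of 32615 probe sets (limma). Olfr372 had the largest value, with a difference of 0.58 ± 0.23 between the KO and the WT change (adjusted p = 1, limma). It was at 6.19, 6.62 and 6.26 on the WT open side, 5.88, 5.88 and 6.12 on the closed side, 6.06, 6.07 and 6.45 on the KO open side and 6.12, 6.60 and 6.41 on the KO closed side. The sides were separate in the WT and overlapped in the KO. Next by size were Olfr341 at -0.44 ± 0.34, Olfr347 at 0.37 ± 0.35 and Olfr356 at -0.33 ± 0.23. For Olfr370 the difference was -0.10, with a 95% interval from -0.50 to 0.31, and for Olfr360 it was 0.11, from -0.26 to 0.48. Each interval includes 0 as well as a KO change smaller or larger than the WT change.

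**Figure D4:**
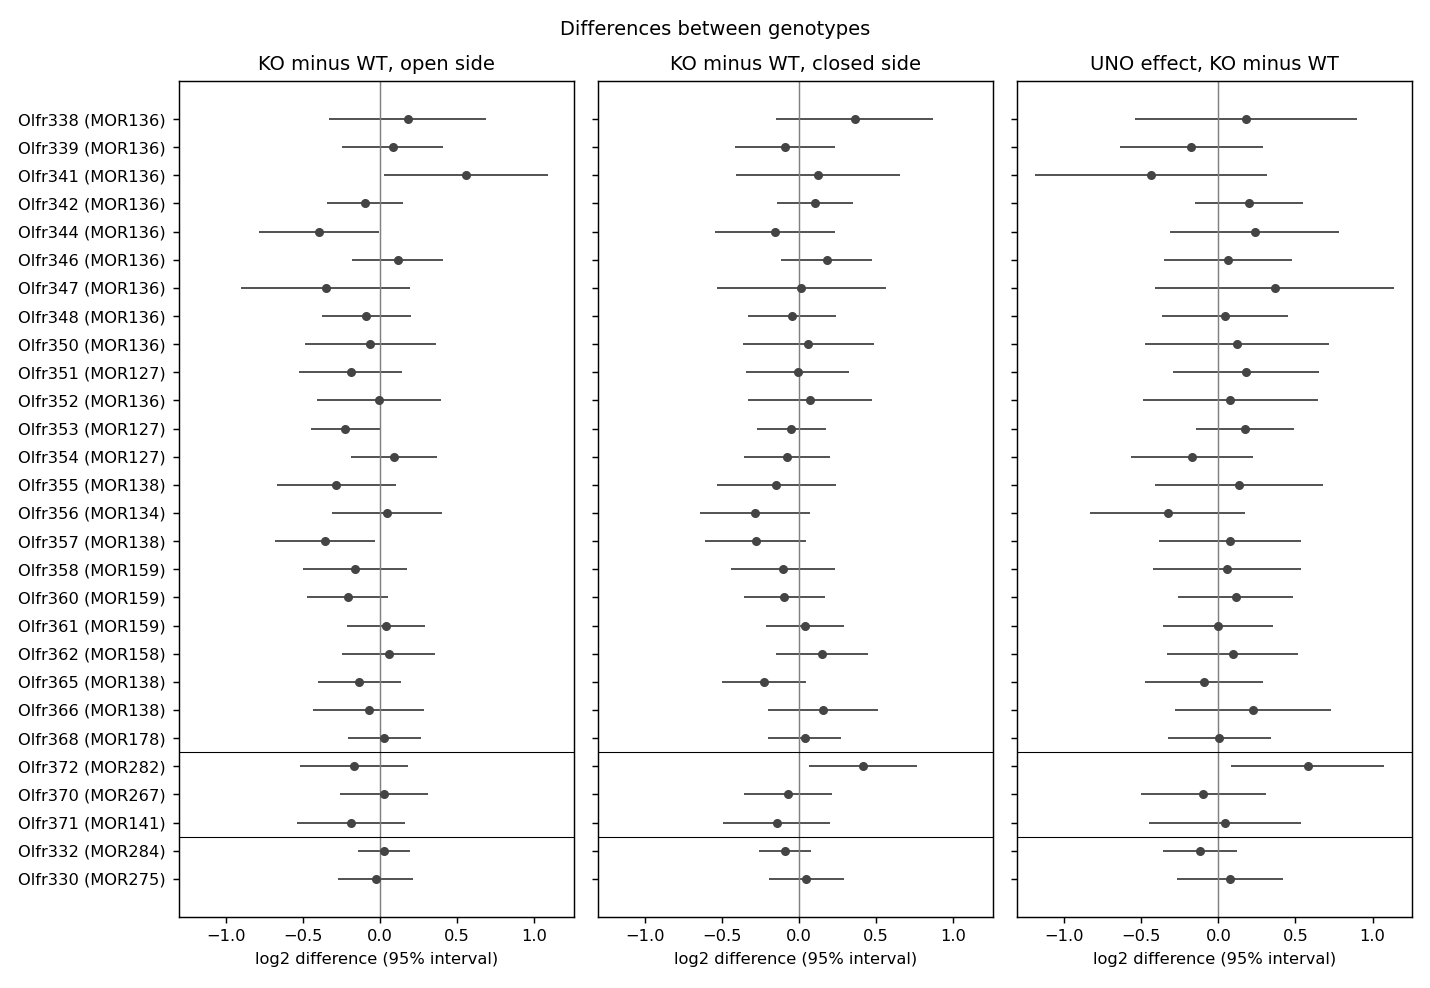
Differences between the genotypes for each tested member on the log2 scale with 95% intervals, as H2be-KO minus WT on the open side (left), on the closed side (middle) and in the effect of UNO (right). Genes stand in chromosome order, with lines between chromosomes 2, 8 and 11. Most intervals cross 0, and Olfr372 is the gene whose interval lies above 0 in the middle and right panels.

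Genes of the neurons that carry these ORs moved between the sides as well. Of 12 markers of mature OSNs, 9 were called higher on the closed side on average and 1 lower (Kcnmb3, a potassium channel subunit, -1.31), with a median log2 change of 0.26. Of 20 genes of odor transduction, which share members with that list, 10 were called higher and none lower. Among them were Pde4a, a cAMP phosphodiesterase (0.57), and Cnga4 (0.40) and Cngb1 (0.38), subunits of the olfactory cation channel. Omp, which is on both lists, was not called, with an average change of 0.03 (adjusted p = 0.91, limma). Of 13 markers of immature OSNs, 8 were called lower and none higher (median -0.26), such as Gng8, a G protein subunit (-0.42). Over all probe sets, 2.90% were called on this average, in either direction. Fewer calls were made within a genotype. In the WT and the KO, 2 and 4 mature markers were called higher and 1 and 1 lower. Odor transduction had 2 and 4 higher calls, with 1 lower in the WT, and immature markers 1 and 1 lower. The mean level of the mature OSN list, relative to each gene's mean, was -0.12 to -0.05 on the open-side arrays and 0.03 to 0.14 on the closed-side arrays, and that of the immature list was 0.05 to 0.15 and -0.18 to -0.05. Median changes of this size are close to those of Olfr332, Olfr330 and Olfr368, and their part in those calls was not tested. Of 12 trace amine-associated receptor genes, whose products detect volatile amines, 6 were called higher on average, 1 in the WT and 2 in the KO. Markers of sustentacular, respiratory and gland cells (8 genes each) and of blood and immune cells (9 genes), and 14 genes tied to OR choice, gave no call, and progenitor and basal cell markers 1 lower call of 9 (Neurod1). H2be, as H2bc21 in the annotation, lay between 11.55 and 11.75 in the WT and 11.31 and 11.46 in the KO, with every KO array below every WT array, and was not called (adjusted p = 0.641 and 0.999 on the 2 sides, limma). Whether its probes lie in the replaced coding sequence is not given in the sources used here, so that this level does not check the genotype. Array medians ran from 7.21 to 7.30, and arrays of a group correlated with r from 0.972 to 0.985.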

How the data were processed

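RNA of 12 MOE samples was read on Affymetrix Mouse Gene ST arrays. In the Affymetrix Expression Console (version not given in the sources used here) the authors applied sketch-quantile normalization and IterPLIER, and what they deposited are log2 expression values for each probe set. No genome build is named. Every column was used, no value was missing and no array repeated another.

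Gene symbols came from the platform annotation. Members and gene lists were chosen with earlier results of these data known. Probe sets with a mean of 5 or less were removed (2941), and 1 mean per group was fitted to the rest with lmFit and eBayes (R 4.3.3, limma 3.58.1 and the data.table package, version 1.17.8). The 6 contrasts were tested two-sided, with Benjamini-Hochberg adjustment over all probe sets and, as in the study, over OR genes. The fit was tested on simulated data. Described singly were called members, the largest changes of each sign (3 in side contrasts, 2 in the others), and the 3 highest and lowest levels. Sequences and gene order came from RefSeq (GRCm38.p6). Motif searches and figures used Python 3.11.15, pandas 2.3.3 and matplotlib 3.10.9. Alternatives changed the filter, variance model, weights, scaling, probe set, arrays and pairing. Precision is limited by the number of arrays, and the median SE over the members was 0.149 for 3 arrays against 3.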

Additional observations from a re-analysis of the deposited data

How the results depend on the processing

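Counts of members called are given here over all probe sets first. In the WT (1 called) the count was 3 with a minimum mean log2 of 7, 2 with trended and robust variances, 0 when only the 6 arrays compared were fitted, 4 with the adjustment over OR genes, and 0 to 1 without each array in turn. The minimum of 7 also left members untested, Olfr338, Olfr341 and Olfr357 among them. In the H2be-KO (1 called) it was 0 without a filter, 2 with trended and robust variances, 0 with each array centred on its median, 0 with only the arrays compared, 2 adjusted over OR genes, and 0 to 1 without each array. On the average (5 called) it was 8 with trended and robust variances, 3 with the replicate block, 8 adjusted over OR genes, and 1 to 4 without each array.

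Of the counts adjusted over OR genes, the WT count of 4 was 1 with only the arrays compared and 1 to 5 without each array. The KO count of 2 was 1 without a filter, 5 with array weights, 1 with quantile normalization, and 1 to 4 without each array. The average count of 8 was 6 to 9 without each array. The remaining alternatives moved no count by over 1.5 times, but an unchanged count can hold other genes. With only the arrays compared, and with the replicate block, the 2 called in the KO over OR genes were Olfr370 and Olfr357, without Olfr338. Without WT open replicate 2, the 1 member called in the WT over all probe sets was Olfr341. No alternative called a member between genotypes or in the difference of effects, and no called change of a member turned in direction. Members without a call were not followed one by one. The causes of these shifts were not tested, and the fits that leave arrays out also have fewer arrays.

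Neither the labels nor the methods say whether same-numbered open and closed samples came from the same mice, and they were not treated as pairs. Their deviations correlated with r from -0.009 to 0.233, and 6 of 12 samples correlated best with their own number, which leaves the pairing unsettled. With the block on the average, Olfr332, Olfr338 and Olfr368 were no longer called over all probe sets and Olfr357 was. The replicate block moved no other count over all probe sets. Quantile normalization and median centring shifted the median of all probe sets by under 0.1.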
